A study of Mus musculus with 6 samples.

Results

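The 10 genes described here encode enzymes of the antioxidant response: Hmox1, Nqo1, Gclc, Gclm, Txnrd1, Srxn1, Sod1, Sod2, Gpx4 and Prdx1. They were taken by name from a table of 54532 genes, in which each matched a single row. All 10 were among the 11277 genes that reached an FPKM (reads adjusted for gene length and a size factor of the library) of at least 1 in at least 3 libraries. Expression was measured by RNA-seq in live CD31+, CD45-, PDGFRb- brain cells. The donors were Df(h22q11)/+ mice, in which the counterpart of human 22q11.2 is deleted from a single chromosome copy. The bezafibrate group (libraries F_1, M_1 and M_2) had eaten chow with 0.5% bezafibrate, an agonist of the PPAR receptors used to lower blood lipids, for 4 weeks, and the untreated group (libraries F_1, F_2 and M_1) irradiated base chow for the same time. Mice were 12 to 16 weeks old, F marks female and M male libraries, and each library pooled 3 brains alike in sex, genotype and chow. Mice of both groups carried the deletion, and wild-type mice were not analysed here. The comparison asks whether bezafibrate in the chow altered transcript levels in brain endothelial cells of these mice.

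Cells meet oxidants and electrophiles with a shared set of enzymes, many of them induced by the transcription factor NRF2, encoded by Nfe2l2. KEAP1 holds NRF2 in the cytoplasm and marks it for degradation, and oxidants release it. In the nucleus NRF2 pairs with a small MAF protein and binds antioxidant response elements, which the repressor BACH1 occupies until heme displaces it. Endothelial cells of the brain are rich in mitochondria, a main source of superoxide, and HMOX1 is among the best known inducible enzymes of the vessel wall. Not all of the 10 genes depend on NRF2 alike: Sod1 and Gpx4 are largely expressed at a steady level in most cells.

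The RefSeq promoter table (GRCm38.p6, 250 bases before to 50 bases after each gene start) held windows for 8 of the 10 genes, all except Hmox1 and Gclc. The core of the antioxidant response element, TGACNNNGC, was searched on both strands, and every match in these genes lay on the strand opposite to the gene, so that it appears reversed and complemented in the sequences. It occurred in the windows of 5 of the 8 genes (Gclm, Prdx1, Sod1, Srxn1 and 1 of 3 start sites of Txnrd1), and in none of those of Nqo1, Sod2 and Gpx4. Over all 32851 windows, 12.4% held the motif, and 14.0% of 27025 genes had at least 1 such window. A match is a run of letters and not evidence of binding, and its absence refers to these windows alone. The windows of Gclm (chr3:122245307-122245606, plus strand), Srxn1 (chr2:152105274-152105573, plus strand) and Prdx1 (chr4:116685349-116685648, plus strand) are shown as examples from NRF2 target genes measured at depth. The windows of Sod1 and Txnrd1 that held the motif are not shown. Capitals mark the motif, which begins 134 bases before the start of Gclm, 133 bases before that of Prdx1 and 28 bases after that of Srxn1.
Gclm: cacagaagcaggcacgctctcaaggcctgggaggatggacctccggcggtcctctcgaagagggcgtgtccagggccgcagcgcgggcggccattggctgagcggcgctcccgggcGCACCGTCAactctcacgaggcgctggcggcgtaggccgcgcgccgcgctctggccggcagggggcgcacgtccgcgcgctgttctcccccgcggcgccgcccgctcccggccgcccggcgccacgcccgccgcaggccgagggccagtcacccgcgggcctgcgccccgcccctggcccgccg
Srxn1: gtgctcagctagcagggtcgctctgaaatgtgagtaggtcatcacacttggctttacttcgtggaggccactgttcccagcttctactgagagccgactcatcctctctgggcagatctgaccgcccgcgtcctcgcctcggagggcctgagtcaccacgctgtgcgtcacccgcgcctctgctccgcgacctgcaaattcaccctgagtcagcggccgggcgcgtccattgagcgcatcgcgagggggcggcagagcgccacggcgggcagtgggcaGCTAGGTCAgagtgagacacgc
Prdx1: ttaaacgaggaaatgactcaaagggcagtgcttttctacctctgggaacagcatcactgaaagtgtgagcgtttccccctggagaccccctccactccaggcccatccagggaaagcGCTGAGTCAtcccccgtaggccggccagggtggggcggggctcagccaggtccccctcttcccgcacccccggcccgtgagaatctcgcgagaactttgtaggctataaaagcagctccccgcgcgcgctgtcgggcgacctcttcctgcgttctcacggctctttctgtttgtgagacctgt

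Depth was even, with 16858130 to 20228619 reads recovered per library. The 12 endothelial markers all passed the filter and summed to 6552 to 10447 FPKM in bezafibrate libraries and 7459 to 11023 FPKM in untreated libraries. Of these, 11 overlapped between the groups, among them Cldn5, a gene of the deleted interval, and Emcn was lower in every bezafibrate library, at 81.9 to 90.2 FPKM, against 96.1 to 101 FPKM untreated. Ptprc, which encodes CD45, was at most 0.0349 FPKM in bezafibrate libraries and at most 0.0153 FPKM in untreated libraries. Pdgfrb, the other antigen gated out, was still read at 7.67 to 9.13 FPKM in bezafibrate libraries and at 6.29 to 12.2 FPKM in untreated libraries. On the first principal component (39.3% of the variance), bezafibrate F_1 scored 24.4 and untreated M_1 30.3, far from the -22.6 to 1.62 of the rest. Each is the sole library of its sex in its group. Of the 10 oligodendrocyte markers, Mal (also made by other cells) stood at 806 FPKM in bezafibrate F_1 and 902 FPKM in untreated M_1, and at 330 to 503 FPKM in the other 4 libraries. The other 9 summed to 93.5 to 104 FPKM in bezafibrate libraries and 95.6 to 156 FPKM in untreated libraries. Among them the myelin genes Mbp and Mobp were lower in every bezafibrate library than in any untreated library. Of all genes tested, 4.13% were lower in this way, as Emcn was. The part of these markers in the results was not tested.

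Hmox1 was higher in all 3 bezafibrate libraries than in any untreated library, and the other 9 genes overlapped between the groups. None of the 10 passed the test across all genes. Treatment was tested with limma on log2(FPKM + 1), two-sided, with Benjamini-Hochberg adjustment over the 11277 genes, and the threshold for a call was an adjusted p of 0.05. Such a call was made for 1 gene, or 0.00887% of those tested, which was not protein-coding, and for 0 of the 10 antioxidant genes. At an unadjusted p under 0.05 the count was 1 of 10, by limma and by limma-voom alike, where 4.19% of all genes reached that level in limma. Groups that did not overlap were found for 1 of the 10 genes, against 8.42% of all genes. By direction of the log2 difference, 3 of the 10 genes were higher with bezafibrate (Hmox1, Gclm and Gpx4) and 7 were lower. Their median was -0.04, and 48.2% of all genes were above 0, at an overall median of -0.01. Rescaled to TPM (values forced to the same total in each library), 68.3% of all genes were above 0, the overall median moved to 0.10, and 7 of the 10 genes were higher and 3 lower. Hmox1 stayed highest of the 10 on that scale, at 0.83. In sorted pools, fewer cells of a type and less RNA per cell cannot be told apart.

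**Figure D1:**
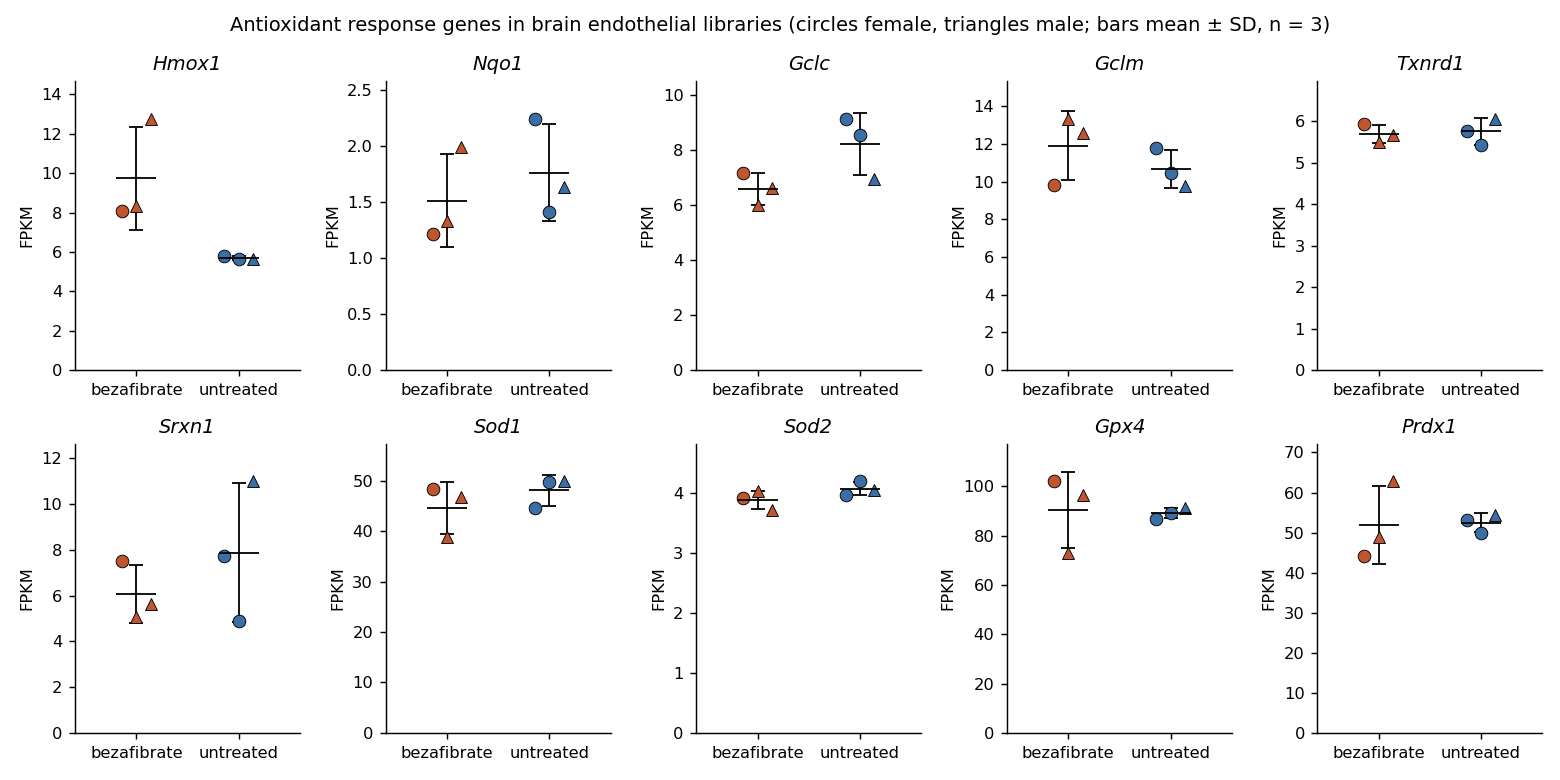
FPKM of the 10 antioxidant genes in each library, bezafibrate left and untreated right in each panel; points are libraries, circles female and triangles male, and bars are means with the SD of 3 libraries. Hmox1 is the panel in which the groups separate, with means of 9.74 FPKM under bezafibrate and 5.69 FPKM untreated.

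Hmox1 (ENSMUSG00000005413, GRCm38 chr8:75093621-75100589, plus strand) encodes heme oxygenase 1, which opens the heme ring to give biliverdin, carbon monoxide and iron. It stood at 8.09, 8.35 and 12.8 FPKM in bezafibrate F_1, M_1 and M_2, against 5.79, 5.64 and 5.63 FPKM in untreated F_1, F_2 and M_1. The untreated libraries were nearly equal, whereas bezafibrate M_2 lay well above the other 2 bezafibrate libraries. The means were 9.74 ± 2.62 FPKM with bezafibrate and 5.69 ± 0.0920 FPKM untreated (SD, n = 3 each), a ratio of 1.71. These values rest on 255, 311 and 420 reads in the bezafibrate libraries and on 204, 176 and 183 reads in the untreated libraries. Counting alone gives a coefficient of variation of 6.22% at the mean reads of Hmox1, which is wider than the untreated spread. The closeness of the untreated values thus says little of how alike those pools were. The log2 difference on the FPKM + 1 scale was 0.66 (SE 0.184, 95% interval 0.23 to 1.08), with an unadjusted limma p of 0.00803, rank 90 of 11277, and an adjusted p of 0.986. Exact permutation of its 6 values gave a two-sided p of 0.1, the smallest that 3 against 3 can give. Without bezafibrate M_2 the log2 difference was 0.46.

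Hmox2 encodes the constitutive heme oxygenase, and set beside Hmox1 it gives the balance of the 2 enzymes within a library. Hmox2 stood at 9.77, 7.47 and 6.31 FPKM in bezafibrate F_1, M_1 and M_2, against 8.70, 7.52 and 8.53 FPKM in untreated F_1, F_2 and M_1, with a log2 difference of -0.08 (unadjusted limma p of 0.657, adjusted p of 0.999). Of its exon bases, 40.2% lie opposite exons of Cdip1 on the other strand, and whether reads were counted by strand is not stated. The ratio of Hmox1 to Hmox2 was 0.828, 1.12 and 2.02 in the bezafibrate libraries, against 0.666, 0.750 and 0.660 in the untreated libraries. Both bezafibrate males thus had more Hmox1 than Hmox2 per length, and the other 4 libraries less.

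Markers of other cell types were read in the same libraries, and some of them, with 2 of the choroid plexus among these, separated the groups as Hmox1 did. Of 11 markers of choroid plexus and ependyma, 10 passed the filter on low values, and their FPKM summed to 465, 630 and 1037 FPKM in bezafibrate F_1, M_1 and M_2, against 473, 412 and 449 in untreated F_1, F_2 and M_1. Ttr, the transthyretin gene of choroid plexus epithelium, gave most of that sum, with 397, 540 and 919 FPKM in the bezafibrate libraries and 389, 349 and 375 FPKM in the untreated libraries. Hmox1 and Ttr had the same order among the bezafibrate libraries, and Ttr and Clic6 were higher in every bezafibrate library than in any untreated library. The other 9 markers overlapped between the groups, where 4.29% of all genes tested were higher in every bezafibrate library. Both bezafibrate males lay above the other 4 libraries for 5 of the 11, a pattern not counted over all genes. Without Ttr the list summed to 68.2, 89.6 and 118 FPKM in bezafibrate F_1, M_1 and M_2, against 84.4, 62.6 and 74.1 FPKM in untreated F_1, F_2 and M_1. The part of these markers in the Hmox1 result was not tested. Microglia and macrophage markers are of interest because macrophages use HMOX1 to clear heme. They passed the filter for 8 of 16 genes, with sums of 28.3 to 39.5 FPKM in bezafibrate libraries and 33.9 to 43.3 FPKM in untreated libraries. Erythrocyte markers, which tell of residual blood and heme, passed for 4 of 7 genes and summed to 51.4 to 149 FPKM in bezafibrate libraries and 45.5 to 298 FPKM in untreated libraries. Both of these sums overlapped between the groups. By single genes, Tmem119 and Ptprc of the microglial list were higher in every bezafibrate library than in any untreated library. Cx3cr1 and Mrc1 of that list were lower in every bezafibrate library, as were 4.13% of all genes tested. Ptprc, Cx3cr1 and Mrc1 stayed below 1 FPKM in all libraries. Of the smooth muscle list, Lmod1 was higher in every bezafibrate library. No marker of the choroid, microglial or erythrocyte lists was at 0 in all 6 libraries.

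**Figure D2:**
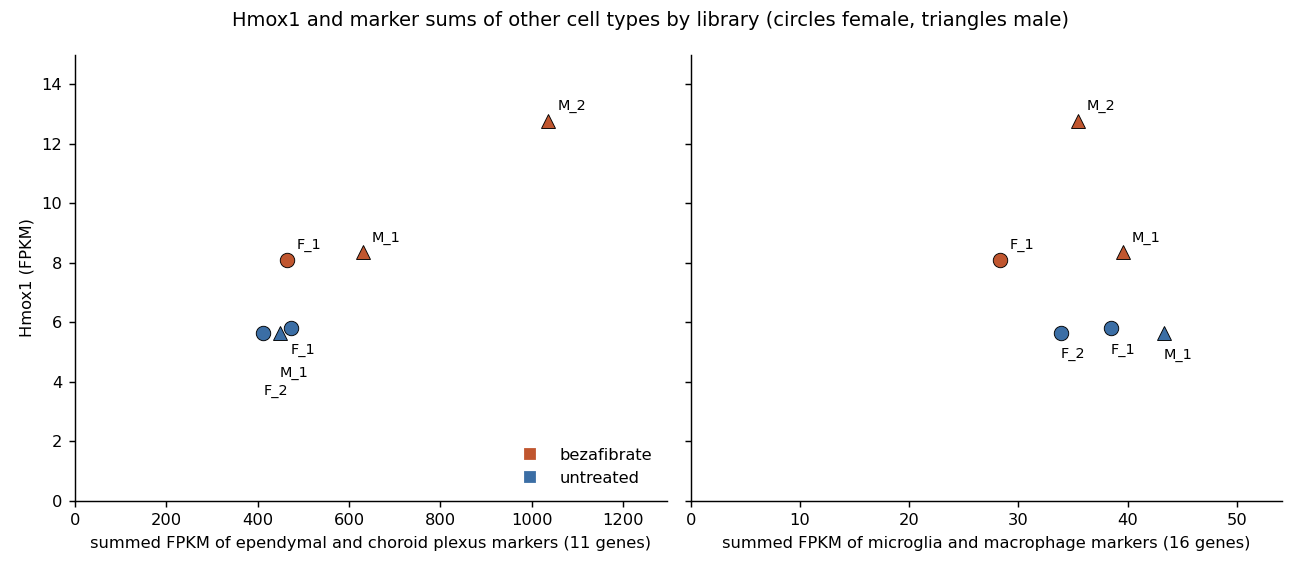
Hmox1 FPKM (y axis) against the summed FPKM of ependymal and choroid plexus markers (left) and of microglia and macrophage markers (right), with 1 point for each library. Bezafibrate M_2 has both the highest Hmox1, 12.8 FPKM, and the highest choroid sum, 1037 FPKM, whereas bezafibrate F_1 has 8.09 FPKM of Hmox1 at a choroid sum of 465 FPKM, inside the untreated range of 412 to 473 FPKM.

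In bezafibrate F_1 the choroid sum of 465 FPKM lay within the untreated range, whereas Hmox1, Ttr and Clic6 each lay above every untreated library, Ttr narrowly (397 FPKM, against at most 389 FPKM untreated). Among 10065 other protein-coding genes tested, those most like Hmox1 by Pearson correlation of log2(FPKM + 1) over the 6 libraries were P2ry1 (r = 0.987), Med19 (0.980), Ecd (0.979), Clic6 (0.975) and Pigc (0.974). These are the extremes of many correlations over 6 points that share their libraries, and are a description only. P2ry1, a purinergic receptor gene, had 4.21, 4.29 and 6.62 FPKM in bezafibrate F_1, M_1 and M_2, against 3.08, 2.56 and 2.49 FPKM in untreated F_1, F_2 and M_1. Clic6 is itself on the choroid list, and had 2.51, 2.96 and 4.72 FPKM in the bezafibrate libraries and 2.01, 2.12 and 1.73 FPKM in the untreated libraries.

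Nqo1 (ENSMUSG00000003849, chr8:107388225-107403206, minus strand) encodes the quinone reductase that is a classic NRF2 target, and it did not share the Hmox1 pattern. It stood at 1.22, 1.33 and 1.99 FPKM in bezafibrate F_1, M_1 and M_2, against 2.24, 1.41 and 1.63 FPKM in untreated F_1, F_2 and M_1. The groups overlapped, and the highest value was that of untreated F_1. The log2 difference was -0.14 (95% interval -0.61 to 0.34). Only 34 to 70 reads per library lay behind these values, for which counting alone gives a coefficient of variation of 14.3%, against 24.6% measured over the 6 libraries. Within each library the ratio of Hmox1 to Nqo1 was 6.65, 6.27 and 6.42 with bezafibrate, against 2.58, 4.00 and 3.45 untreated, and did not overlap between the groups. Hmox1 by itself already separated the groups, so the ratio is no further result. How often ratios of other gene pairs separate was not computed.

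Glutathione synthesis starts with glutamate-cysteine ligase, whose catalytic subunit is encoded by Gclc and whose modifier subunit by Gclm. Gclc (ENSMUSG00000032350, chr9:77754535-77794485) stood at 7.18, 6.02 and 6.63 FPKM in bezafibrate F_1, M_1 and M_2, against 9.15, 8.57 and 6.96 FPKM in untreated F_1, F_2 and M_1. Its means of 6.61 ± 0.583 FPKM with bezafibrate and 8.23 ± 1.13 FPKM untreated (SD, n = 3 each) differed by -0.27 on the log2 scale (95% interval -0.62 to 0.07), with an unadjusted limma p of 0.106 and an adjusted p of 0.999. Bezafibrate F_1 was above untreated M_1, which is the sole overlap. Gclm (ENSMUSG00000028124, chr3:122245557-122270732) stood at 9.85, 13.3 and 12.6 FPKM in bezafibrate F_1, M_1 and M_2, against 11.8, 10.5 and 9.78 FPKM in untreated F_1, F_2 and M_1, a log2 difference of 0.14 (95% interval -0.23 to 0.50). The subunits thus differed in sign, and neither passed the test. Gclc per Gclm was 0.730, 0.451 and 0.528 in the bezafibrate libraries, against 0.776, 0.819 and 0.712 in the untreated libraries. The ratio overlapped only through bezafibrate F_1, which exceeded untreated M_1. Without both of those libraries, the log2 difference of Gclc was -0.43, with an adjusted limma p of 0.545, but what remains is 2 male bezafibrate and 2 female untreated libraries, in which treatment and sex cannot be told apart. With sex as a covariate over all 6 libraries it was -0.20 (unadjusted limma p of 0.229).

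Txnrd1, Srxn1 and Prdx1 act in the thioredoxin and peroxiredoxin cycle. Prdx1 reduces peroxides, Srxn1 (sulfiredoxin) restores peroxiredoxin that has been overoxidised, and Txnrd1 recharges thioredoxin with electrons from NADPH. Txnrd1 (ENSMUSG00000020250, chr10:82833951-82897712) was among the steadiest of the genes, at 5.94, 5.49 and 5.66 FPKM in bezafibrate F_1, M_1 and M_2, against 5.78, 5.43 and 6.07 FPKM in untreated F_1, F_2 and M_1. Its log2 difference of -0.01 had a 95% interval of -0.31 to 0.28.

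Srxn1 (ENSMUSG00000032802, chr2:152105516-152111376) varied widely within the untreated group. It stood at 7.51, 5.05 and 5.64 FPKM in bezafibrate F_1, M_1 and M_2, against 7.74, 4.90 and 11.0 FPKM in untreated F_1, F_2 and M_1. Untreated M_1 was the highest library and untreated F_2 the lowest. The log2 difference of -0.28 (95% interval -0.91 to 0.34) was -0.04 without untreated M_1 and -0.55 without untreated F_2.

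Prdx1 (ENSMUSG00000028691, chr4:116685544-116700822) stood at 44.2, 48.8 and 62.8 FPKM in bezafibrate F_1, M_1 and M_2, against 53.2, 49.9 and 54.4 FPKM in untreated F_1, F_2 and M_1. The bezafibrate libraries held both the lowest and the highest value, and the log2 difference was -0.03 (95% interval -0.40 to 0.34).

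The superoxide dismutases turn superoxide into hydrogen peroxide, Sod1 mainly in the cytosol and Sod2 in the mitochondrial matrix. Sod1 (ENSMUSG00000022982, chr16:90220754-90226329) stood at 48.3, 38.8 and 46.7 FPKM in bezafibrate F_1, M_1 and M_2, against 44.6, 49.8 and 49.8 FPKM in untreated F_1, F_2 and M_1. Its log2 difference was -0.11 (95% interval -0.44 to 0.22). Sod2 (ENSMUSG00000006818, chr17:13006846-13040063) stood at 3.91, 4.02 and 3.72 FPKM in bezafibrate F_1, M_1 and M_2, against 3.97, 4.19 and 4.04 FPKM in untreated F_1, F_2 and M_1. It had the smallest spread of the 10 genes, and its log2 difference was -0.05 (95% interval -0.35 to 0.25). Both dismutases overlapped between the groups. Of the 75-base windows of Sod2 transcripts, 16.2% also occur in other genes, so its reads may be shared.

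Gpx4 (ENSMUSG00000075706, chr10:80047166-80056439) encodes the selenoenzyme that reduces lipid hydroperoxides in membranes and restrains ferroptosis. It stood at 102, 72.9 and 96.4 FPKM in bezafibrate F_1, M_1 and M_2, against 86.9, 89.4 and 91.2 FPKM in untreated F_1, F_2 and M_1. The untreated values lay within the bezafibrate range, and the log2 difference was 0.01 (95% interval -0.37 to 0.38). Of its 75-base windows, 29.8% also occur in the pseudogene Gpx4-ps2 or in AC122253.3, which makes its level uncertain.

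**Figure D3:**
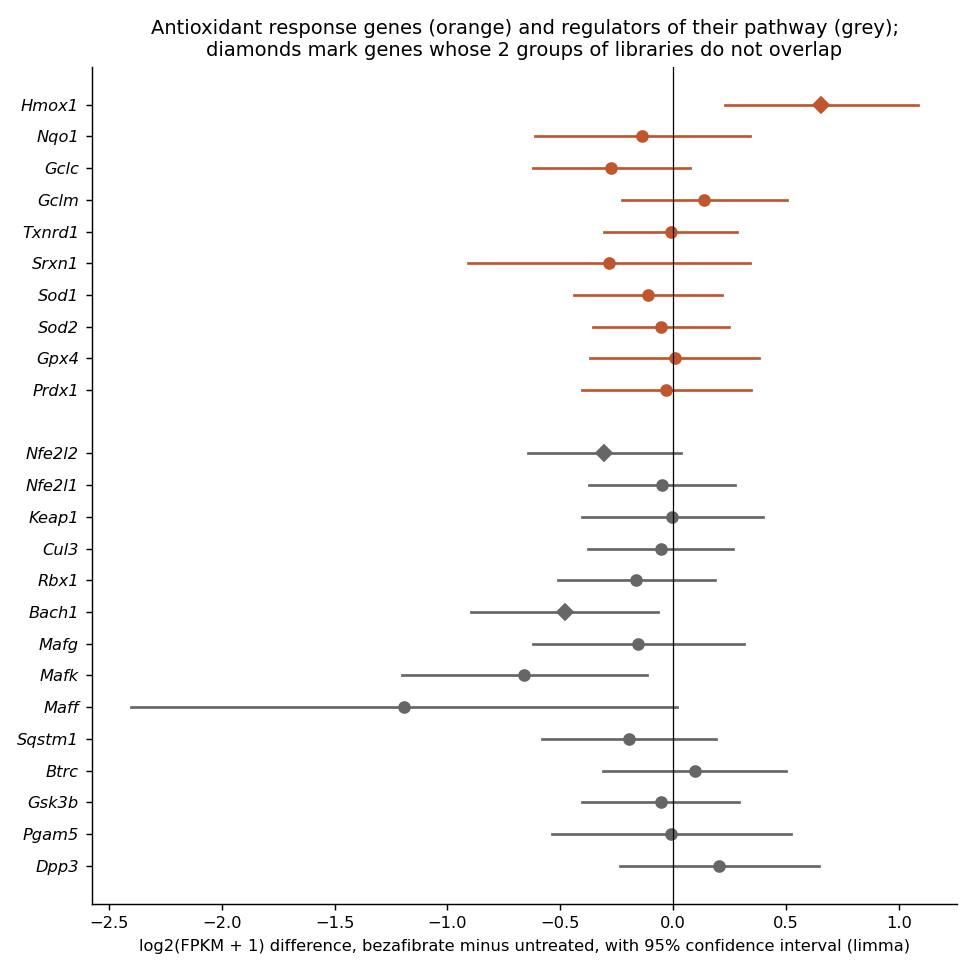
Log2 difference in FPKM + 1, bezafibrate minus untreated, of the 10 antioxidant genes (orange) and the regulators of their pathway (grey), with 95% intervals from limma. The intervals of Hmox1 (0.23 to 1.08), Bach1 (-0.89 to -0.07) and Mafk (-1.20 to -0.12) leave out 0 before adjustment, and no gene shown passed the adjusted test.

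Ordered by mean FPKM over the 6 libraries, Gpx4 (89.8) was followed by Prdx1 (52.2), Sod1 (46.3), Gclm (11.3), Hmox1 (7.71), Gclc (7.42), Srxn1 (6.97), Txnrd1 (5.73), Sod2 (3.98) and Nqo1 (1.64). Gpx4 ranked at percentile 95.9 of the genes tested and Nqo1 at percentile 13.0. Neighbours in that order had separate ranges at 4 of the 9 steps: Gpx4 over Prdx1, Sod1 over Gclm, Txnrd1 over Sod2 and Sod2 over Nqo1. From Gclm down to Txnrd1, each gene overlapped with the next. The order depends on the gene length used. The table gives Sod1 a length of 3970 bases, whereas its principal transcript has 641 bases, and with principal transcript lengths Sod1 stood first at 287 and Gpx4 next at 161.

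Spread between libraries set Hmox1 and Srxn1 apart from the rest. The coefficient of variation over the 6 libraries was 35.9% for Hmox1 and 33.2% for Srxn1, where counting error alone gives 6.22% and 5.17%. Nqo1 came next, and the others lay between 3.92% for Sod2 and 16.1% for Gclc. For Sod2 and for Txnrd1, at 4.33%, that spread was close to the counting error of 3.63% and 3.59%. The spread of Hmox1 followed the treatment groups, and that of Srxn1 did not.

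Among the 45 pairs of these genes, Pearson r of log2(FPKM + 1) over the 6 libraries exceeded 0.8 in size for 4. These were Txnrd1 with Srxn1 (r = 0.947), Sod1 with Gpx4 (0.822), Hmox1 with Sod2 (-0.850) and Gclm with Sod1 (-0.840). The spread of Txnrd1 and of Sod2 was close to counting error, so their r values rest on differences of about that size. Hmox1 had a positive r with 4 of the other 9 genes, between -0.850 and 0.54 over all 9. These are descriptions of 6 points that share library and depth, and how often other gene pairs reach such sizes was not computed.

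**Figure D4:**
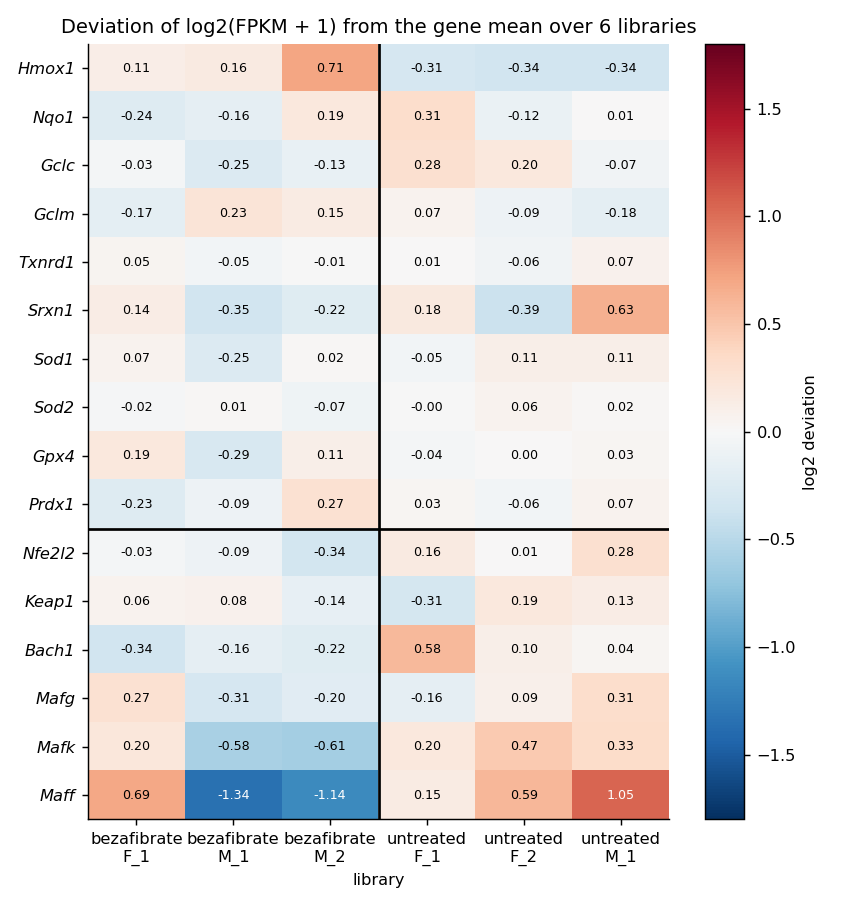
Deviation of log2(FPKM + 1) from each gene's mean over the 6 libraries, for the 10 antioxidant genes (above the line) and 6 regulators (below it), with bezafibrate libraries left of untreated libraries. Red is above the mean and blue below; Hmox1 is above its mean in all 3 bezafibrate libraries and below it in all 3 untreated libraries, and the Maff row reaches from -1.34 in bezafibrate M_1 to 1.05 in untreated M_1.

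The regulators of the pathway were described as a list of 14 genes, all of them tested. Of these, 2 were higher with bezafibrate and 12 lower, with a median log2 difference of -0.11 (7 higher and 7 lower on the TPM scale), and 0 passed the adjusted limma test. At an unadjusted p under 0.05 in limma, 2 were lower (Mafk and Bach1), where 2.08% of all genes were lower at that level. By limma-voom 3 were lower (Maff, Mafk and Bach1), and the share over all genes is given for limma alone. In 2 the bezafibrate libraries all lay below the untreated libraries (Nfe2l2 and Bach1), as in 4.13% of all genes.

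Nfe2l2, which encodes NRF2, stood at 19.3, 18.5 and 15.5 FPKM in bezafibrate F_1, M_1 and M_2, against 22.3, 19.9 and 24.3 FPKM in untreated F_1, F_2 and M_1. Its log2 difference was -0.31 (unadjusted limma p of 0.0714, adjusted p of 0.999). Bach1, the gene of the repressor, stood at 5.27, 6.10 and 5.82 FPKM in the bezafibrate libraries, against 10.9, 7.52 and 7.15 FPKM in the untreated libraries. Its log2 difference was -0.48 (SE 0.178, unadjusted limma p of 0.0279, adjusted p of 0.999), and -0.31 without untreated F_1. Genes of the activator and the repressor were thus both lower in every bezafibrate library than in any untreated library. Keap1 stood at 10.6, 10.8 and 9.07 FPKM with bezafibrate, against 7.96, 11.7 and 11.2 FPKM untreated, with overlapping groups. Hmox1 per Bach1 was 1.54, 1.37 and 2.19 in the bezafibrate libraries, against 0.532, 0.750 and 0.788 in the untreated libraries. That separation follows from those of the genes themselves and is no further result.

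Small MAF proteins are the DNA-binding partners of NRF2 and BACH1. Maff stood at 376, 91.4 and 105 FPKM in bezafibrate F_1, M_1 and M_2, against 259, 352 and 482 FPKM in untreated F_1, F_2 and M_1, and Mafk at 108, 62.3 and 61.0 FPKM with bezafibrate, against 107, 130 and 118 FPKM untreated. Both were low in the bezafibrate males and overlapped through bezafibrate F_1, which with untreated M_1 stands apart on the first principal component. The log2 differences were -1.19 for Maff (SE 0.519, unadjusted p of 0.0522 by limma and 0.0307 by limma-voom) and -0.66 for Mafk (SE 0.233, unadjusted limma p of 0.0232), with adjusted p-values of 0.999 for each. Mafg, Sqstm1 (the autophagy receptor that binds KEAP1), Nfe2l1, Rbx1, Cul3, Gsk3b and Pgam5 were lower by 0.01 to 0.20 on the log2 scale and overlapped between the groups, though Nfe2l1, Cul3, Gsk3b and Pgam5 were higher on the TPM scale. Btrc and Dpp3 were higher, by 0.09 and 0.20.

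The neighbouring pathways were described through 8 further lists. With the regulators, they held 134 genes, of which 114 were tested. Of the 114, 47 were higher and 67 lower, with a median log2 difference of -0.02, whereas on the TPM scale 73 were higher and 41 lower. Splits by direction within a list, given next in FPKM, carry the same shift between scales. Limma called 0 of them at an adjusted p under 0.05, as did limma-voom. At an unadjusted p under 0.05, 7 were lower and 0 higher, and by limma-voom 6 were lower and 0 higher. In all genes 2.08% were lower and 2.1% higher at that level in limma. The bezafibrate libraries lay wholly below the untreated libraries for 8 of the 114, and wholly above for 0, where 4.13% and 4.29% of all genes did so.

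**Figure D5:**
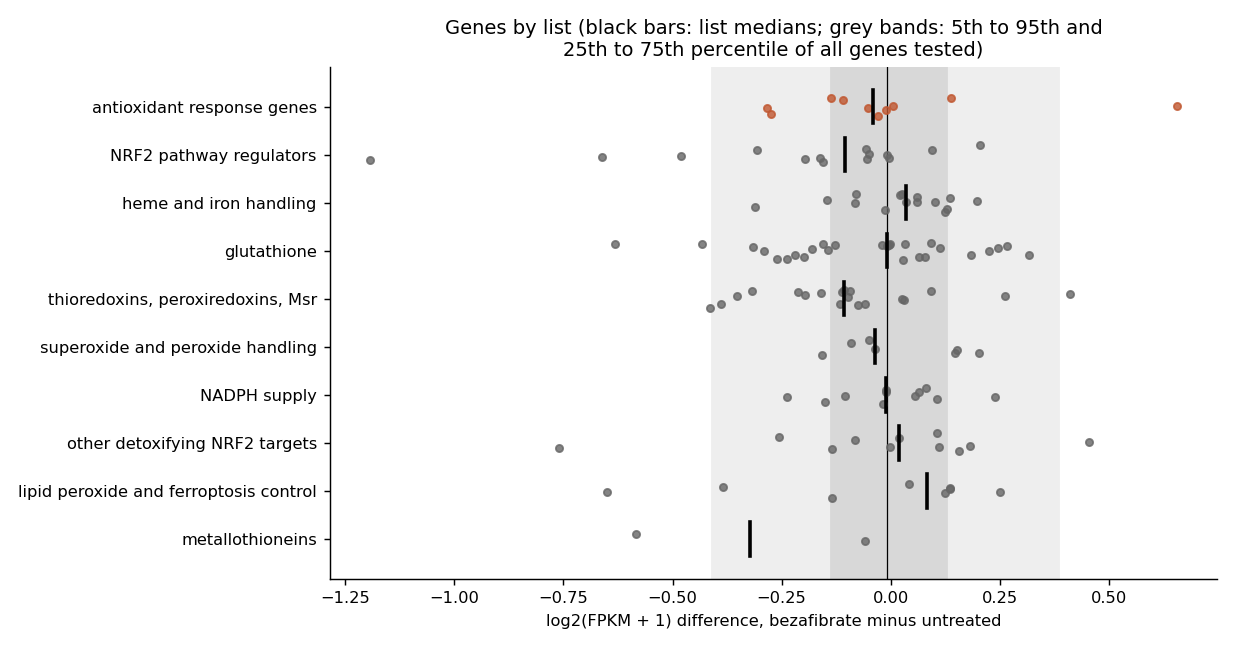
Log2 difference (bezafibrate minus untreated, FPKM + 1) of each tested gene in the antioxidant set and the 9 pathway lists, with a point for each gene and a bar at each list's median. The medians lie between -0.32 (metallothioneins) and 0.08 (lipid peroxide and ferroptosis control), and Hmox1, at 0.66, is above every gene of the other lists.

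Heme and iron handling, the pathway into which Hmox1 feeds, had 15 of 17 genes tested, 10 higher and 5 lower, with a median of 0.04 and none at an unadjusted p under 0.05. The 3 with the smallest p were Ftl1, the ferritin light chain (-0.15), Ireb2, an iron regulatory protein (0.10), and Tfrc, the transferrin receptor (0.20). Ftl1 stood at 320, 351 and 384 FPKM in bezafibrate F_1, M_1 and M_2, against 360, 355 and 458 FPKM in untreated F_1, F_2 and M_1. The ferritin and iron genes named here therefore overlapped between the groups.

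Of 30 genes of glutathione synthesis, cycling and conjugation, 27 were tested, with 11 higher, 16 lower and a median of -0.01. Chac1, an enzyme that degrades glutathione, stood at 1.53, 1.26 and 1.53 FPKM in bezafibrate F_1, M_1 and M_2, against 2.79, 4.42 and 1.61 FPKM in untreated F_1, F_2 and M_1 (log2 difference -0.63, unadjusted limma p of 0.0475, adjusted p of 0.999). Its groups did not overlap, though bezafibrate F_1 and M_2 lay just below untreated M_1. Slc7a11, which imports cystine for glutathione, did not pass the filter and was at most 0.399 FPKM in bezafibrate libraries and 0.411 FPKM in untreated libraries. Gstk1 and Glrx5 differed by -0.26 and 0.25.

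Thioredoxins, peroxiredoxins and methionine sulfoxide reductases had 19 of 20 genes tested, 5 higher and 14 lower, with a median of -0.11. Msrb1, a methionine sulfoxide reductase, stood at 6.85, 6.73 and 7.91 FPKM in bezafibrate F_1, M_1 and M_2, against 11.3, 8.16 and 9.72 FPKM in untreated F_1, F_2 and M_1, without overlap (-0.39, unadjusted limma p of 0.0392). Sesn1, a sestrin, stood at 31.6, 29.1 and 40.0 FPKM with bezafibrate, against 52.0, 39.6 and 43.3 FPKM untreated (-0.42, unadjusted limma p of 0.0436). Prdx4, the peroxiredoxin of the endoplasmic reticulum, differed by -0.32. Txnrd2, the mitochondrial thioredoxin reductase, lies in the deleted interval and is hemizygous in all libraries. It did not pass the filter, at 0.972, 0.588 and 0.870 FPKM in bezafibrate F_1, M_1 and M_2, against 0.599, 1.63 and 0.441 FPKM in untreated F_1, F_2 and M_1.

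Superoxide and peroxide handling had 7 of 10 genes tested, with 3 higher, 4 lower and a median of -0.04. Catalase (Cat), which removes hydrogen peroxide in peroxisomes and is a PPAR-responsive gene in rodent liver, stood at 25.1, 32.2 and 34.0 FPKM in bezafibrate F_1, M_1 and M_2, against 32.1, 28.5 and 21.8 FPKM in untreated F_1, F_2 and M_1 (log2 difference 0.15). Xdh and Sod3 differed by 0.20 and -0.16. NADPH supply had 11 of 12 genes tested, 5 higher and 6 lower, with a median of -0.01, and its 3 named genes were G6pdx (0.24), Me2 (-0.24) and Tkt (-0.15). The groups overlapped for Cat, Xdh, Sod3, G6pdx, Me2 and Tkt.

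Other detoxifying NRF2 targets had 11 of 18 genes tested, 6 higher and 5 lower, with a median of 0.02. Osgin1, an oxidative stress induced growth inhibitor, stood at 16.4, 6.65 and 9.03 FPKM in bezafibrate F_1, M_1 and M_2, against 14.1, 19.0 and 20.6 FPKM in untreated F_1, F_2 and M_1 (-0.76, unadjusted limma p of 0.0372). Ephx1, microsomal epoxide hydrolase, stood at 84.2, 72.3 and 91.4 FPKM with bezafibrate, against 107, 92.3 and 96.6 FPKM untreated, without overlap (-0.26). Cbr3, a carbonyl reductase, differed by 0.45. These NRF2 targets beside the 10 genes were thus split in direction.

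Lipid peroxide and ferroptosis control had 8 of 10 genes tested, 5 higher and 3 lower, with a median of 0.08. Gch1, which makes the first step of tetrahydrobiopterin synthesis and so serves nitric oxide synthase, stood at 32.2, 19.0 and 19.6 FPKM in bezafibrate F_1, M_1 and M_2, against 33.6, 38.7 and 37.5 FPKM in untreated F_1, F_2 and M_1. Its log2 difference of -0.65 (unadjusted limma p of 0.0161, adjusted p of 0.999) was without overlap, with bezafibrate F_1 just below untreated F_1. Acsl4 and Aifm2 differed by -0.38 and 0.12. Of the metallothioneins, 2 of 3 were tested and both were lower, Mt1 by 0.58 and Mt3 by 0.06 on the log2 scale. Mt1 stood at 213, 77.6 and 125 FPKM with bezafibrate, against 187, 172 and 220 FPKM untreated, and overlapped through bezafibrate F_1.

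Sex was fitted with treatment as a covariate, since the groups hold unequal numbers of male and female libraries. Male minus female differences of the 10 genes lay between -0.23 for Gclc and 0.20 for Prdx1, with 0 of 10 called by limma, where 0.0266% of all genes were called. At an unadjusted p under 0.05 the count was 0 of 10 in limma and 0 in limma-voom, against 2.94% of all genes in limma. The male minus female difference of Hmox1 was 0.15 (SE 0.205), and with sex as a covariate its treatment difference was 0.61 (unadjusted limma p of 0.0233).

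For the difference between the sexes in the treatment effect, female bezafibrate and male untreated mice are represented by bezafibrate F_1 and untreated M_1 alone. Limma called 0 of the 10 genes for this interaction, against 0.665% of all genes, and 1 of 10 at an unadjusted p under 0.05, against 21.3% of all genes. That gene was Srxn1, with an interaction (male effect minus female effect) of -1.16 (SE 0.386, unadjusted limma p of 0.0221, adjusted p of 0.163). For Hmox1 the interaction was 0.34 (SE 0.375, adjusted p of 0.647). These are also the 2 libraries that stand apart on the first principal component, on the same side of it, so that the interaction and that separation cannot be told apart.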

How the data were processed

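RNA-seq values of 6 libraries were used, 3 bezafibrate and 3 untreated. Per the labels' protocols, cDNA was made with SMART-Seq HT, libraries with Nextera XT, and single-end reads of 75 bases were de-duplicated and assigned with Salmon. The submitters' processing notes name GRCm38. Salmon version, annotation and strand: not given in the sources used here. Values as deposited by the authors are FPKM per gene, with positions and lengths, which are used as given. Names deposited as calendar dates (27 genes) were restored from gene IDs. The untreated male is titled M_1 but carries the number M_2 in its table column; it was matched through its sample's description and is called M_1 here, and 0 columns were left unused. FPKM times gene length gave whole reads for 100% of values at a tolerance of 0.01 reads, which served for depth and limma-voom. Counting errors cover counting only.

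Values were analysed as log2(FPKM + 1), which understates changes of low genes, keeping genes that reached 1 FPKM in 3 or more libraries. The fit used limma 3.58.1 under R 4.3.3 (lmFit, eBayes with trend), two-sided, with Benjamini-Hochberg adjustment over 11277 genes. Differences are bezafibrate minus untreated. The fit was tested on simulated data. Libraries are pools of separate animals, and p-values reflect how far such pools vary. Same-named libraries of the 2 groups were not treated as pairs. The 10 genes, the lists and the tests were chosen with earlier results of these data known. Named genes were the 10, all listed regulators, the 3 genes of smallest p in each other list, Hmox2, Txnrd2, Slc7a11, Cat and the 5 genes most correlated with Hmox1. Alternatives were other pseudocounts, filters and scalings, limma-voom, array weights, sex as a covariate, a replicate block and omission of libraries. Counting Gpx4-ps2 with Gpx4, principal transcript lengths and a block by column name were added after seeing the data. Shared windows were sought in GENCODE transcripts of GRCm38.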

Additional observations from a re-analysis of the deposited data

How the results depend on the processing

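The treatment difference of Hmox1 was positive in all 18 alternatives, between 0.45 (pseudocount of 5 FPKM) and 0.83 (FPKM rescaled to TPM), with unadjusted p-values of 0.00352 to 0.162 and no adjusted p below 0.275. Gclm also stayed positive in all 18, between 0.0460 and 0.26. Gclc and Srxn1 stayed negative in every alternative, as did Nqo1 where it was tested. Nqo1 and Sod2 have no value under the filter of 5 FPKM. None of the 10 genes was called for treatment or sex in any alternative. Over all genes, 1 was called for treatment, against 0 by limma-voom, 0 without both untreated M_1 and bezafibrate F_1, 0 with the replicate block and 0 to 3 when leaving out 1 library; for sex, 3 were called, and 1 to 4 when leaving out 1 library. Deviations from the group mean correlated at -0.363 between the libraries named F_1 and at -0.299 between those named M_1. The untreated male has the title M_1 and the column name M_2, and correlated at -0.156 with bezafibrate M_2. Which number holds is unsettled, and the numbers were not taken to pair libraries. With the replicate block by title Hmox1 differed by 0.46 (unadjusted limma p of 0.162), and with the block by column name, added after seeing the data, by 0.74 (0.0662), with 0 genes called in either.

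Signs of small differences turned. The TPM scale shifts the median of all genes to 0.10, against -0.01 as reported; for the other settings the cause was not tested. On the TPM scale the treatment differences that turned were Txnrd1 0.0987, Sod1 0.00496, Sod2 0.0477, Prdx1 0.0864, Nfe2l1 0.0657, Keap1 0.11, Cul3 0.0586, Gsk3b 0.0573, Pgam5 0.11, Mt3 0.0491, Hmox2 0.0248, and the median of the 10 genes was 0.0671. With quantile scaling they were Prdx1 0.0461, Nfe2l1 0.0368, Keap1 0.0176, and with limma-voom Keap1 0.0131, Pgam5 0.0249. With array weights, whose estimation stopped before convergence, they were Txnrd1 0.00974, Gpx4 -0.0860, Prdx1 0.0271, Aifm2 -0.0240, Mt3 0.00334. Without both untreated M_1 and bezafibrate F_1 they were Gpx4 -0.0713, Prdx1 0.10, Keap1 0.0319, Pgam5 0.22, Ftl1 0.0368, Tfrc -0.0255, Mt3 0.31. With the replicate block they were Gpx4 -0.0455, Nfe2l1 0.0692, Keap1 0.16. With the block by the column name they were Sod1 0.0116, Nfe2l1 0.0341, Keap1 0.0463, Pgam5 0.0862. With reads of Gpx4-ps2 added, a choice made after seeing the data, the value was Gpx4 -0.000160. Leaving out 1 library gave the ranges Gpx4 -0.0874 to 0.15, Prdx1 -0.17 to 0.0766, Pgam5 -0.22 to 0.11, Mt3 -0.32 to 0.16, Txnrd1 -0.0470 to 0.0205, Keap1 -0.16 to 0.0877, Hmox2 -0.23 to 0.0485, Sod3 -0.33 to 0.0158, Nfe2l1 -0.12 to 0.0183, Cul3 -0.11 to 0.0326, Gsk3b -0.15 to 0.0413, Tfrc -0.0767 to 0.50, Cat -0.00371 to 0.28. The male minus female difference of Sod2 was 0.0231 on the TPM scale and 0.00511 by limma-voom. Leaving out 1 library gave male minus female ranges of Hmox1 -0.0192 to 0.32, Nqo1 -0.0877 to 0.25, Gclm -0.17 to 0.36, Sod1 -0.18 to 0.0796, Gpx4 -0.28 to 0.0483, Sod2 -0.0300 to 0.00813, Txnrd1 -0.0779 to 0.0977, Srxn1 -0.42 to 0.74. The sex difference could not be fitted without both untreated M_1 and bezafibrate F_1, where sex equals treatment. Counting error is largest for Nqo1 among the 10 genes.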
